A study of Homo sapiens with 6 samples.

Results

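SR proteins and heterogeneous nuclear ribonucleoproteins (hnRNPs) are RNA-binding proteins that decide which exons a messenger RNA keeps. The group examined here held every gene whose symbol belongs to the SRSF, HNRNP or TRA2 series, without pseudogenes, and 8 exon regulators added by name: ESRP1, ESRP2, RBFOX2, PTBP1, PTBP3, MBNL1, MBNL2 and QKI. The pattern took 38 symbols, of which 1 pseudogene (HNRNPKP3) was left out, so the group had 45 genes of the 38167 in the count table. It comprised 12 SR proteins (SRSF1 to SRSF12), 2 TRA2 genes, 23 HNRNP genes and the 8 added regulators. HNRNPA2B1, a major hnRNP, has a symbol that the pattern does not take, and it is given separately. The rule takes members by name, and it was set with earlier results of these data known.

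The RNA came from Cal27, an established human tongue carcinoma line that the labels type as squamous epithelial. The labels name no added gene or drug. The cells were grown for 14 days as spheroids by liquid overlay in Matrigel, a basement membrane extract that gels, at 3 mg/mL (soft, 3 libraries) or 12 mg/mL (stiff, 3 libraries). The labels call the libraries biological replicates and do not say whether they came from separate cultures, so the p-values speak only of spread among the 6 libraries, which may be technical, and the Matrigel concentration changes ligand amount along with stiffness.

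SR proteins carry a domain rich in arginine and serine, bind mostly to exons and as a rule favour their inclusion. HnRNPs coat nascent transcripts and often, though not always, keep exons out. ESRP1 and ESRP2 maintain the exon choices of epithelial cells, while RBFOX2, QKI, MBNL and PTB proteins act on many of the exons that change when epithelial cells take on mesenchymal traits. Many genes of these families limit their own output through transcripts that carry a premature stop and are degraded. GENCODE annotates at least 1 such decay transcript for 30 of the 41 members that passed the count filter (73.2%), against 45.2% of 2217 protein-coding genes averaging 100 CPM (counts scaled to library size) or more. The counts are per gene and do not separate productive from decay transcripts.

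Libraries held between 30656278 and 40583044 counts. Of 8 squamous epithelial genes, 5 were higher in stiff (62.5%, against 25.3% of all tested genes) and 2 lower (25%, against 23.8%). KRT5 was at 1970 CPM in soft and 6490 in stiff and KRT14 at 822 and 5160. CDH1 was at 320 and 235 and EPCAM at 135 and 107. The summed level of the 8 genes was 4450 to 4850 CPM in the soft libraries and 15200 to 16100 in the stiff libraries. Of 5 leukocyte genes, PTPRC had at most 3 counts in any library, whereas CD68 was at 55.8 CPM in soft and 101 in stiff and CD14 at 51.4 and 36.6, with a summed level of 103 to 111 CPM in soft and 130 to 144 in stiff. Of 5 neuronal genes, the splicing regulator NOVA1 had at most 3 counts. RBFOX3 had 2 to 23 counts (adjusted p = 0.204, edgeR), and ELAVL3, ELAVL4 and SNAP25 had at most 8. Of 4 endothelial genes, VWF was at 1.58 CPM in soft and 3.22 in stiff (adjusted p = 0.00234, edgeR). PECAM1 was at 0.292 and 0.31 CPM, and KDR and CLDN5 had at most 4 counts. Of 7 fibroblast genes, 4 passed the count filter, and 2 of these were higher in stiff (50%, against 25.3% of all tested genes). COL1A1 was at 71.8 CPM in soft and 82.6 in stiff and LUM at 2.31 and 17.3. COL1A2 was at 1.74 CPM in soft and 1.7 in stiff. COL3A1, DCN, PDGFRA and PDGFRB had at most 27 counts in any library. The summed fibroblast level, most of it COL1A1, was 72.9 to 80.4 CPM in the soft libraries and 99.3 to 106 in the stiff libraries. The part of these marker genes in the results was not tested. Stiff replicate 2 stood apart: its disagreement with the other stiff libraries (chi-square per degree of freedom 30.22 and 30.75) exceeded that between stiff replicates 1 and 3 (3.26). The nuclear RNAs MALAT1 and NEAT1 did not pass the test between conditions (adjusted p = 0.698 and 0.944, edgeR). Within stiff, MALAT1 was at 4060 CPM in replicate 2 and at 2830 and 2850 in replicates 1 and 3. The mitochondrial transcripts planned beside them had no row in the counts.

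These 4 sequences come from before the RefSeq starts of 4 members that passed the test below. Each is the longest exon-free stretch within the 250 bases before the gene's start in RefSeq (GRCh38.p14), written 5′ to 3′ on the gene's strand, with matches to the searched motifs in capitals. HNRNPU (chr1:244864561-244864737, minus strand), SRSF6 (chr20:43457646-43457895, plus strand) and SRSF8 (chr11:95066627-95066876, plus strand) belong to genes that fell, and PTBP3 (chr9:112333030-112333276, minus strand) to the gene that rose most. Gene spans given further below are those of GENCODE, whose starts can differ from those of RefSeq. The PTBP3 stretch lies inside the GENCODE span of the gene (112217716 to 112333667), not in front of it. The SRSF8 stretch ends short of the GENCODE start at 95067197.
HNRNPU: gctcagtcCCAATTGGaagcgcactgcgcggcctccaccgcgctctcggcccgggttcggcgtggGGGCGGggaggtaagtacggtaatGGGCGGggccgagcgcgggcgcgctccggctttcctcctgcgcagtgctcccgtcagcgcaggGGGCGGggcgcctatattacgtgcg
SRSF6: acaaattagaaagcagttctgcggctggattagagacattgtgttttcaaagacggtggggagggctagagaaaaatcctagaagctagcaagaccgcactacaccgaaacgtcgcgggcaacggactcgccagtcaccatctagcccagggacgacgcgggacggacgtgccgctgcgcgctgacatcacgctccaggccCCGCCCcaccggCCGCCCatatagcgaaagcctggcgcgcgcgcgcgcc
SRSF8: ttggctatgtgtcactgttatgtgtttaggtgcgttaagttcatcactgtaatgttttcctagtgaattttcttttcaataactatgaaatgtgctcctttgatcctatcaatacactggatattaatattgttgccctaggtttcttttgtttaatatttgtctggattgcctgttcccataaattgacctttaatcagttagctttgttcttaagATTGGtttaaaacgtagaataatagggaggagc
PTBP3: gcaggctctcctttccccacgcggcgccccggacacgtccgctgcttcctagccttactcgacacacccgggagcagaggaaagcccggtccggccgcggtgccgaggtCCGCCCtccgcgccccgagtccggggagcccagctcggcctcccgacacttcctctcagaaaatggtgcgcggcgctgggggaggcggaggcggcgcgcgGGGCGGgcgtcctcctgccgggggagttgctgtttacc

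The motifs searched on both strands were the GC box (GGGCGG), the CCAAT box (CCAAT), the E-box (CACGTG), the ETS motif (CCGGAAG), the TATA box (TATAAA), the CRE (TGACGTCA) and the NRF1 motif. The CCAAT and GC boxes of HNRNPU, the GC boxes of SRSF6 and PTBP3, and the reversed CCAAT of SRSF8 are the capitals above. Windows of 250 bases were found for 34 of the 41 tested members. The E-box occurred in 6 of the 34 (17.6%), those of HNRNPA3, HNRNPD, HNRNPDL, HNRNPH2, HNRNPH3 and HNRNPM, against 6.49% of all 27305 promoters and 8.44% of 13261 promoters of tested genes. The 6 include 3 genes that fell and 2 that rose. The CCAAT box occurred in 47.1% of member windows (33% of all promoters, 34.3% of tested genes) and the GC box in 64.7% (42.3% of all, 61.9% of tested genes). The TATA box occurred in 14.7% (11.1% of all, 6.42% of tested genes) and the ETS motif in 14.7% (8.82% of all, 14% of tested genes). The CRE and the NRF1 motif occurred in 0 of the 34 (2.59% and 1.76% of tested genes). SRSF8 stood out in base composition, with 33.6% G or C in its window, compared with 61.6% in that of SRSF6 and 73.6% in that of PTBP3. A match describes the letters only.

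Levels were compared between genes as CPM per kilobase of the median coding transcript. The most abundant members were SRSF5, at 207 ± 5.66 in soft and 215 ± 9.75 in stiff, and HNRNPC, at 201 ± 10.3 and 220 ± 16.7 (SD, n = 3 libraries per condition). HNRNPK, a poly(C)-binding hnRNP, was at 200 ± 3.47 and 171 ± 1.71, and RBFOX2 at 150 in soft and 190 in stiff, so that HNRNPK was above RBFOX2 in soft and below it in stiff. SRSF5 and HNRNPC did not differ beyond their spread in either condition. Apart from HNRNPCL1, the low end included QKI (16.7 ± 0.392 and 14 ± 0.889), HNRNPLL (11.4 ± 0.0824 and 11 ± 0.474) and SRSF8 (13.2 ± 0.528 and 8.11 ± 0.653). The order depends on the length used: RBFOX2 ranked 4th by this measure and 24th when all annotated exons were taken. Deposited TPM were not used to compare levels between genes, because the length they imply tracked the number of annotated transcripts. Across 5930 genes with over 1000 counts in each library, that length correlated with exonic length at r = 0.676 and with exonic length times the number of RefSeq transcripts at r = 0.911. For MBNL1, with 130 RefSeq transcripts, it was 556 times that of SRSF9, with 1 transcript.

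**Figure D1:**
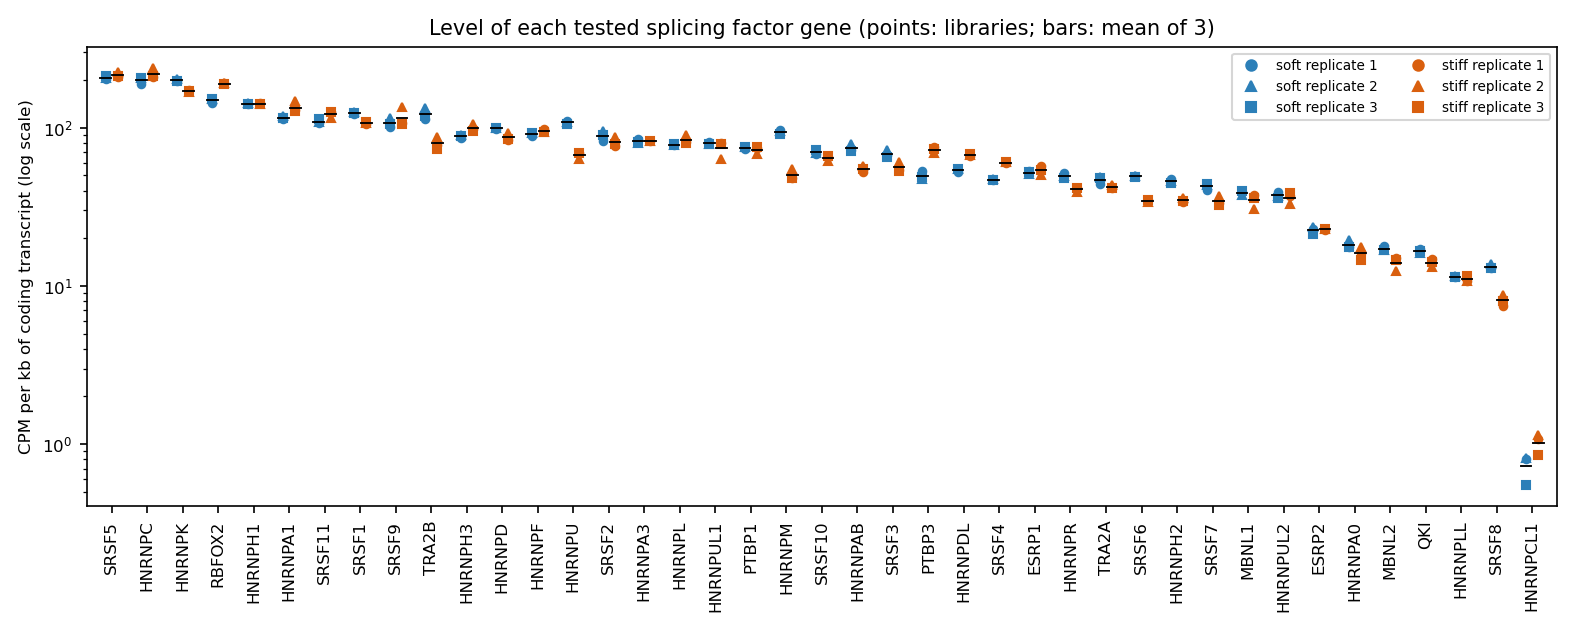
Level of each tested member in every library, as CPM per kilobase of the median coding transcript on a log axis; points are libraries (blue soft, orange stiff) and bars are means of 3. Most members lie within a narrow band, SRSF5 and HNRNPC are at the top, and HNRNPCL1 lies far below the rest at 0.725 in soft and 1.02 in stiff.

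The question put to the comparison of stiff with soft Matrigel was how matrix stiffness alters expression in these spheroids. In edgeR's quasi-likelihood test, 41 members passed the count filter; 15 were lower in stiff, 6 were higher and 20 did not pass an adjusted p of 0.05. The share called was 51.2% of members against a background of 49.1% of all 18676 tested genes, so being called was not in itself a result about these genes. By direction, 36.6% of members were lower against 23.8% of tested genes, and 14.6% were higher against 25.3%. For the 2328 tested genes averaging 100 CPM or more the background was 60.3% called, 25.9% lower and 34.4% higher. The changes were small. Of the members, 4 (9.76%) passed the threshold and differed at least 1.5-fold, and none passed it and differed 2-fold. Counted the same way, the shares were 25.7% and 13.2% of tested genes. They were 18.9% and 6.83% of those averaging 100 CPM or more. The median log2 fold change was -0.10 over the members and at 0 within rounding over all tested genes; over the members it was -0.04 without stiff replicate 2 and -0.03 with the gene length trend removed. Soft and stiff values did not overlap in 17 lower and 11 higher members, against 59.9% of tested genes without overlap, 29.6% lower and 30.3% higher. In bulk RNA, fewer cells of a kind and less RNA per cell cannot be told apart.

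Without stiff replicate 2, 18 members were lower and 7 higher, with all 21 calls retained, while 27.4% of tested genes were lower and 28.2% higher. SRSF2, TRA2A and HNRNPA0 then passed as lower (adjusted p = 0.0089, 0.0142 and 0.00261, edgeR) and SRSF11 as higher (adjusted p = 0.00331, edgeR). With scaling by library size only, 4 members were higher and 18 lower, and higher members made up 18.2% of the calls rather than 28.6%. With limma on log2(TPM + 1) they made up 15.8%. Of the 21 calls, 13 kept their side of the threshold and their direction under all 16 alternatives: HNRNPM, HNRNPU, HNRNPAB, HNRNPH2, HNRNPR, HNRNPK, SRSF6, SRSF7, SRSF8, TRA2B, SRSF4, HNRNPDL and PTBP3.

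**Figure D2:**
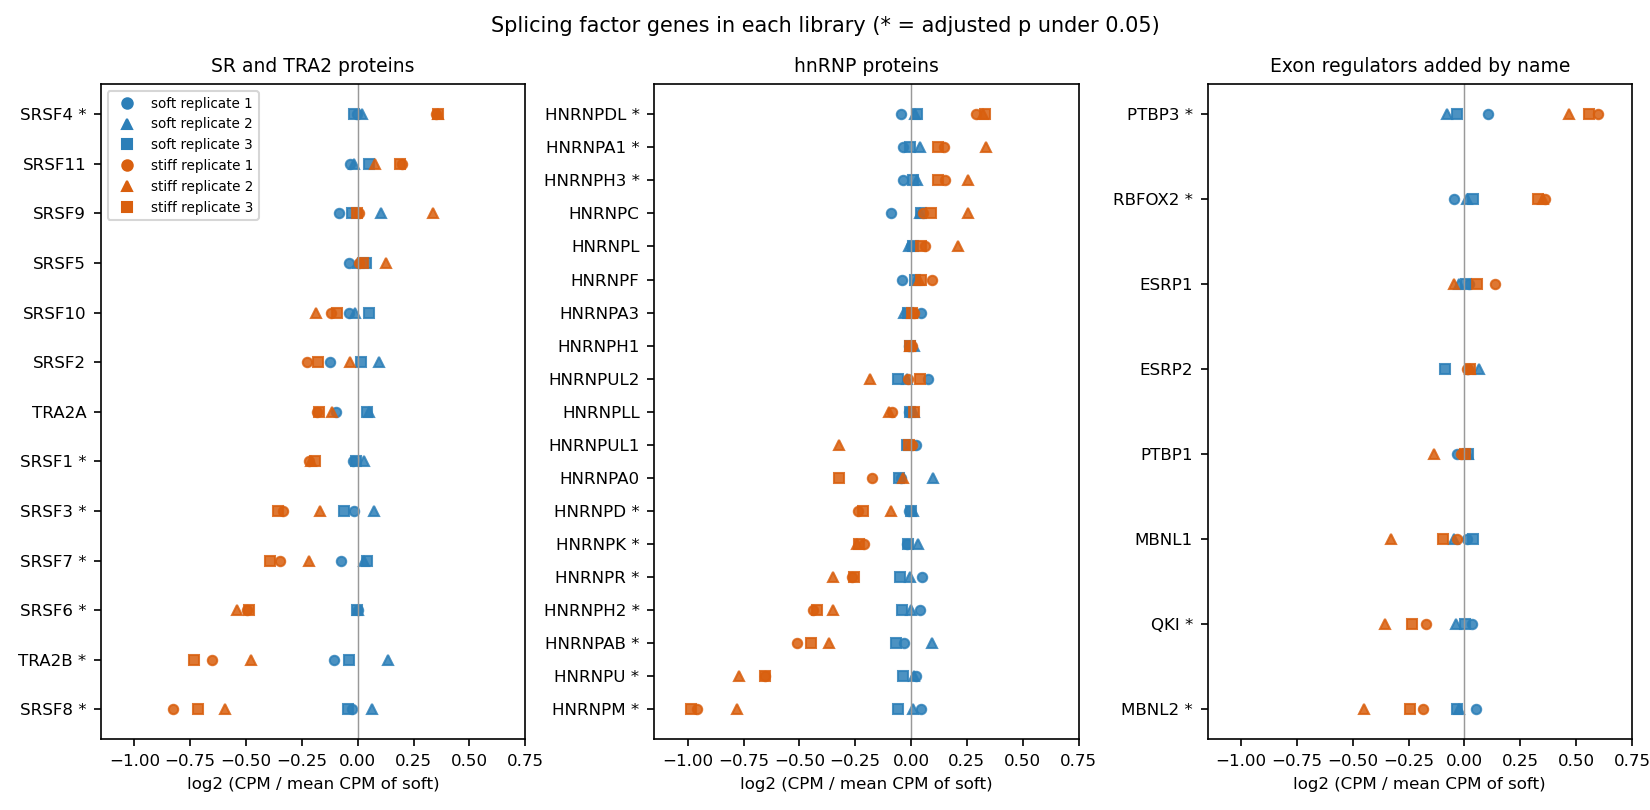
Each tested member except HNRNPCL1 in every library, as log2 of its CPM over the mean CPM of soft; blue symbols are soft, orange stiff, and triangles mark replicate 2. Orange points of HNRNPM, SRSF8, HNRNPU and TRA2B lie to the left of all their blue points, those of PTBP3, RBFOX2, SRSF4 and HNRNPDL to the right, and ESRP1 and ESRP2 overlap.

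Among SR proteins, 5 of 11 tested genes fell (45.5%, against 23.8% of all tested genes), 1 rose (9.09%, against 25.3%) and 5 did not pass. The count that fell was 3 without soft replicate 2. SRSF8 (chromosome 11, 95067197 to 95071224), a close relative of SRSF2, was at 52.5, 55.8 and 51.8 CPM in the soft libraries and at 30.1, 35.4 and 32.5 in the stiff libraries. It fell 1.63-fold (log2 fold change -0.71, SE 0.0811, adjusted p = 7.05e-05, edgeR). SRSF6 (chromosome 20, 43457928 to 43464247), an SR protein with a pair of RNA recognition motifs, was at 213, 213 and 212 CPM in soft and 151, 146 and 152 in stiff, with no overlap and little spread. It fell 1.42-fold (log2 fold change -0.51, SE 0.0601, adjusted p = 8.52e-05, edgeR). These were the SR protein changes with the smallest p.

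SRSF7, which also carries a zinc knuckle, was at 99.7, 107 and 108 CPM in soft and 82.3, 90.2 and 80 in stiff, a 1.25-fold fall (adjusted p = 0.005, edgeR). SRSF3, the smallest SR protein and an adaptor for RNA export, was at 172, 183 and 167 CPM in soft and 138, 155 and 136 in stiff, 1.21-fold lower (adjusted p = 0.0107, edgeR, and 0.0548 without soft replicate 2). In both genes stiff replicate 2 was the stiff library nearest to soft. SRSF1, the founding SR protein and a known oncoprotein, was at 172, 178 and 174 CPM in soft and 150, 151 and 153 in stiff. Its 1.16-fold fall (adjusted p = 0.0157, edgeR) was lost without soft replicate 2 (0.0657) and without stiff replicate 1 (0.0555). Another annotated gene shares 49.6% of the 61-base words of SRSF1, so its counts are uncertain.

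The SR gene that rose was SRSF4 (chromosome 1, 29147743 to 29181987), a long SR protein with an extended arginine and serine domain. It was at 112, 114 and 111 CPM in soft and 143, 144 and 144 in stiff, a 1.28-fold rise (log2 fold change 0.36, SE 0.0601, adjusted p = 0.000819, edgeR). SRSF4 and SRSF6 are close relatives and moved in opposite directions. The ratio of SRSF4 to SRSF6 counts was 0.523 to 0.534 in the soft libraries and 0.947 to 0.986 in the stiff libraries. SRSF5, a relative of both and the most abundant SR gene per length, was at 285, 293 and 301 CPM in soft and 294, 320 and 298 in stiff (log2 fold change 0.05, SE 0.065, adjusted p = 0.513, edgeR), with overlapping groups.

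SRSF2, SRSF9, SRSF10 and SRSF11 did not pass either (adjusted p = 0.162, 0.339, 0.132 and 0.0739, edgeR). SRSF9 was at 121, 138 and 126 CPM in soft and 129, 162 and 128 in stiff, with stiff replicate 2 above every other library. GATC, on the opposite strand, covers 46.2% of the exons of SRSF9, and MFSD11 covers 36.7% of those of SRSF2, so both counts are uncertain. SRSF12 had 2 to 11 counts per library and lay below the count filter.

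The TRA2 proteins are SR-like activators that bind purine-rich exon sequences. TRA2B (chromosome 3, 185915906 to 185938136) was at 111, 131 and 116 CPM in soft and 76, 85.7 and 71.9 in stiff. It fell 1.53-fold (log2 fold change -0.61, SE 0.0892, adjusted p = 0.000328, edgeR), and the groups did not overlap. Its paralog TRA2A was at 89.3, 98.9 and 98.4 CPM in soft and 84.3, 88.2 and 84.7 in stiff (log2 fold change -0.16, SE 0.069, adjusted p = 0.0856, edgeR). The ratio of TRA2B to TRA2A counts was 1.18 to 1.32 in soft and 0.85 to 0.971 in stiff.

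Of 20 tested hnRNP genes, 7 fell (35%, against 23.8% of all tested genes), 3 rose (15%, against 25.3%) and 10 did not pass. A single hnRNP gene rose, HNRNPDL, without any 1 soft library or without stiff replicate 1, and also with library size only or with limma on TPM. HNRNPM (chromosome 19, 8444767 to 8489114), an hnRNP known to compete with ESRP1 at some exons, showed the largest change of any tested member. It was at 243, 237 and 226 CPM in soft and 121, 137 and 119 in stiff, 1.87-fold lower (log2 fold change -0.90, SE 0.075, adjusted p = 8.26e-06, edgeR). HNRNPU (chromosome 1, 244840638 to 244864560), a large nuclear matrix protein also called SAF-A, was at 466, 462 and 447 CPM in soft and 291, 269 and 291 in stiff. It fell 1.61-fold (log2 fold change -0.69, SE 0.0647, adjusted p = 1.81e-05, edgeR). COX20, on the opposite strand, covers 15.6% of the exons of HNRNPU and had 7.82% to 14.4% of its counts. The counts of HNRNPU are therefore uncertain. The log2 fold change of COX20 was -0.04 (adjusted p = 0.76, edgeR).

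HNRNPAB, which binds single-stranded nucleic acid in nucleus and cytoplasm, was at 122, 133 and 119 CPM in soft and 87.5, 96.6 and 91.5 in stiff, 1.35-fold lower (adjusted p = 0.000743, edgeR). PHYKPL, its neighbour on the opposite strand, covers 9.14% of its exons and had 65.7% to 76.7% of its counts, with a log2 fold change of -0.42 beside -0.44 for HNRNPAB. HNRNPH2, a binder of G-rich runs, was at 105, 102 and 99.1 CPM in soft and 75.3, 80 and 76.1 in stiff, 1.32-fold lower (adjusted p = 0.000612, edgeR). A readthrough gene, RPL36A-HNRNPH2, had 106% to 120% of the counts of HNRNPH2, so the counts of the pair cannot be told apart and are uncertain. HNRNPH1, the paralog of HNRNPH2, was at 310 ± 2.62 CPM in soft and 310 ± 1.13 in stiff (SD, n = 3; log2 fold change 0.00, SE 0.059). The ratio of HNRNPH1 to HNRNPH2 counts was 2.92 to 3.12 in soft and 3.87 to 4.13 in stiff.

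The remaining hnRNP genes that fell did so by less. HNRNPR was at 137, 132 and 128 CPM in soft and 110, 104 and 111 in stiff (1.22-fold, adjusted p = 0.0047, edgeR). HNRNPK was at 552, 570 and 554 CPM in soft and 482, 472 and 475 in stiff (1.17-fold, adjusted p = 0.00985, edgeR). In neither gene did the groups overlap. HNRNPD, also called AUF1 and a regulator of mRNA decay, was at 164, 166 and 165 CPM in soft and 140, 155 and 142 in stiff (1.13-fold, adjusted p = 0.0446, edgeR). Its call was lost when any library other than stiff replicate 2 was left out (adjusted p = 0.105 to 0.149), without a count filter (0.0677) and with the length trend removed (log2 fold change -0.12, adjusted p = 0.177). HNRNPA2B1, outside the group by its symbol, was at 902, 899 and 859 CPM in soft and 735, 793 and 757 in stiff, 1.16-fold lower (adjusted p = 0.0166, edgeR). That call was lost without soft replicate 1, soft replicate 2, stiff replicate 1 or stiff replicate 3 (adjusted p = 0.0626, 0.064, 0.0753 and 0.0561), and with the length trend removed (log2 fold change -0.09 rather than -0.22, adjusted p = 0.35).

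HNRNPDL, a paralog of HNRNPD whose own transcript is controlled by a decay exon, was at 162, 169 and 170 CPM in soft and 204, 209 and 210 in stiff. It rose 1.24-fold (log2 fold change 0.32, SE 0.0612, adjusted p = 0.00191, edgeR), so that these neighbouring paralogs moved in opposite directions. The ratio of HNRNPDL to HNRNPD counts was 0.988 to 1.03 in soft and 1.35 to 1.49 in stiff. HNRNPA1, the archetypal hnRNP, was at 192, 202 and 196 CPM in soft and 218, 248 and 214 in stiff (1.15-fold higher, adjusted p = 0.0402, edgeR). HNRNPH3 was at 158, 165 and 163 CPM in soft and 180, 193 and 176 in stiff (1.13-fold higher, adjusted p = 0.0467, edgeR). Stiff replicate 2 was the highest library in both, and both calls were kept without it. The calls were lost when other libraries were left out. Without any 1 soft library or stiff replicate 1, adjusted p was 0.0513 to 0.142 for HNRNPA1 and 0.0844 to 0.166 for HNRNPH3 (edgeR). For HNRNPH3 it was 0.0596 without stiff replicate 3. HNRNPA1 shares 21.6% of its 61-base words with other genes, and its copy HNRNPA1P10 had 56.3% to 63.3% of its counts. The counts of HNRNPA1 are therefore uncertain.

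The hnRNP genes that did not pass included the abundant HNRNPC, at 302, 330 and 331 CPM in soft and 333, 383 and 341 in stiff (adjusted p = 0.168, edgeR). HNRNPA0, HNRNPA3, HNRNPF, HNRNPL, HNRNPLL, HNRNPUL1 and HNRNPUL2 had adjusted p of 0.119 to 0.946. HNRNPUL2 was at 206, 193 and 188 CPM in soft and 194, 172 and 201 in stiff, with overlapping groups, and is uncertain because the readthrough gene HNRNPUL2-BSCL2 had 93.9% to 99.8% of its counts. HNRNPA3 and HNRNPL are uncertain too, with 16.5% and 10.4% of their 61-base words shared with other genes. HNRNPCL1, a gene resembling HNRNPC, had 19 to 45 counts per library (adjusted p = 0.155, edgeR). Its relatives HNRNPCL2, HNRNPCL3 and HNRNPCL4 had 0 to 11 counts and lay below the count filter. The HNRNPCL genes are uncertain, sharing 48.3% to 92.6% of their 61-base words with each other or with other genes.

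The epithelial splicing regulators did not pass the test. ESRP1 (chromosome 8, 94641074 to 94707466) was at 198, 192 and 196 CPM in soft and 215, 189 and 203 in stiff (log2 fold change 0.05, SE 0.0683, adjusted p = 0.575, edgeR). ESRP2 (chromosome 16, 68229111 to 68238102) was at 81.7, 84.4 and 76.1 CPM in soft and 81.3, 82.2 and 82.2 in stiff (log2 fold change 0.02, SE 0.067, adjusted p = 0.82, edgeR). In both the groups overlapped, and the sign of the difference turned with scaling by library size only (-0.01 and -0.04). Their ratio was 2.28 to 2.57 in soft and 2.3 to 2.64 in stiff. The ratio of HNRNPM to ESRP1 counts was 1.15 to 1.23 in soft and 0.563 to 0.726 in stiff.

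RBFOX2 and PTBP3 rose. PTBP3 (chromosome 9, 112217716 to 112333667), a pyrimidine tract binder related to PTBP1, was at 388, 341 and 352 CPM in soft and 546, 499 and 531 in stiff. Its 1.46-fold rise was the largest among tested members past the threshold (log2 fold change 0.54, SE 0.0731, adjusted p = 0.000198, edgeR). PTBP1, which silences exons in most non-neuronal cells, was at 232, 240 and 240 CPM in soft and 235, 216 and 238 in stiff (log2 fold change -0.05, SE 0.066, adjusted p = 0.559, edgeR). The ratio of PTBP3 to PTBP1 counts was therefore 1.42 to 1.67 in soft and 2.23 to 2.32 in stiff. RBFOX2 (chromosome 22, 35738736 to 36028425) was at 213, 222 and 226 CPM in soft and 283, 281 and 277 in stiff, 1.27-fold higher (log2 fold change 0.35, SE 0.0613, adjusted p = 0.00107, edgeR). With limma on TPM that call was lost (adjusted p = 0.115 to 0.128). The TPM of RBFOX2, rounded to 1 decimal, were 2.6 to 2.7 in soft and 2.9 to 3.2 in stiff.

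QKI and MBNL2 fell. QKI, a STAR-family protein that also promotes circular RNA formation, was at 108, 103 and 106 CPM in soft and 93.7, 82.6 and 89.7 in stiff (1.19-fold lower, adjusted p = 0.0142, edgeR). MBNL2, a muscleblind protein, was at 82.1, 77.9 and 77.4 CPM in soft and 69.6, 57.9 and 66.8 in stiff (1.22-fold lower, adjusted p = 0.0143, edgeR). Stiff replicate 2 was the lowest library in both. Without soft replicate 1 both calls were lost (adjusted p = 0.061 and 0.0635, edgeR), and the call of QKI was lost with the gene length trend removed (adjusted p = 0.21). With limma on TPM the adjusted p was 0.0593 to 0.0856 for QKI and 0.106 to 0.126 for MBNL2. Their TPM, rounded to 1 decimal, were 2.2 to 3.5 for QKI and 1 to 1.7 for MBNL2. MBNL1 was at 202, 194 and 206 CPM in soft and 196, 160 and 188 in stiff (adjusted p = 0.163, edgeR), and is uncertain because MBNL1-AS1, on the opposite strand, covers 11.4% of its exons. The ratio of RBFOX2 to QKI counts was 1.98 to 2.16 in soft and 3.02 to 3.4 in stiff.

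**Figure D3:**
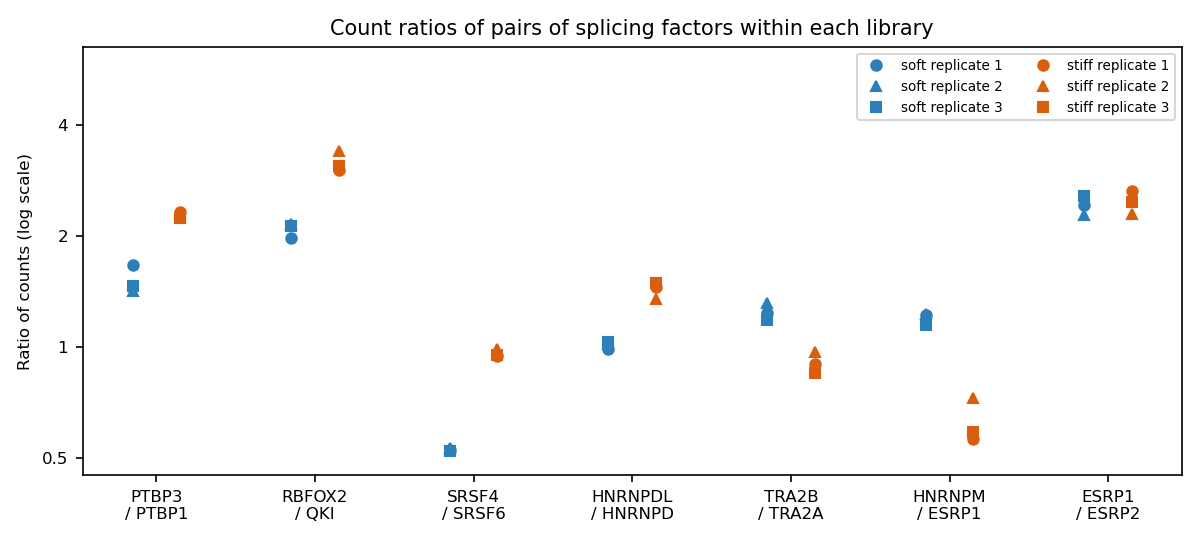
Ratio of the counts of pairs of splicing factors within each library, on a log axis; blue symbols are soft and orange stiff. The ratios of PTBP3 to PTBP1, RBFOX2 to QKI, SRSF4 to SRSF6 and HNRNPDL to HNRNPD are higher in every stiff library, those of TRA2B to TRA2A and HNRNPM to ESRP1 are lower, and that of ESRP1 to ESRP2 overlaps; the pairs were chosen after their values were seen.

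Other splicing genes were read from 8 lists, beside a background of 25.3% of all tested genes higher and 23.8% lower. Of 10 genes for SR protein kinases and import, 3 rose (30%), 2 fell (20%) and 5 did not pass (median log2 fold change -0.12). The share called was 50%, near the 49.1% of all tested genes. The 3 that rose are kinases of the CLK family, which phosphorylate SR proteins in the nucleus. The other CLK gene of the list, CLK2, did not pass and lay in the opposite direction, at 40 ± 2.34 CPM in soft and 35.4 ± 0.809 in stiff (SD, n = 3; log2 fold change -0.18, adjusted p = 0.0762, edgeR). CLK3 went from 50.2 ± 2 to 78.6 ± 5.28 CPM (1.56-fold, adjusted p = 7.74e-05, edgeR), CLK1 from 101 ± 2.5 to 141 ± 2.71 CPM (adjusted p = 0.000164, edgeR) and CLK4 from 21.8 ± 1.02 to 29.1 ± 1.16 CPM (adjusted p = 0.00165, edgeR; SD, n = 3). Of 10 SR-related speckle proteins, 5 fell (50%) and 2 rose (20%). BCLAF1 fell 1.65-fold, from 138 ± 7.86 to 83.2 ± 8.41 CPM, THRAP3 1.48-fold and SON, a scaffold of nuclear speckles, 1.43-fold (adjusted p = 9.07e-05, 0.000375 and 0.000367, edgeR).

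Of 23 other hnRNP and RNA-binding regulators, 7 fell (30.4%, against 23.8% of all tested genes) and 3 rose (13%, against 25.3%). MBNL3, a weakly expressed muscleblind paralog, averaged 7.24 ± 0.546 CPM in soft and 1.83 ± 0.349 in stiff (SD, n = 3), a 3.95-fold fall (adjusted p = 8.46e-06, edgeR). TIAL1, a binder of U-rich intron sequence, rose 1.4-fold (adjusted p = 0.000134, edgeR). The count that fell was 4 without soft replicate 1, and the count that rose was 1 without soft replicate 1, soft replicate 3 or stiff replicate 3.

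Of 15 tri-snRNP and PRPF19 complex genes, which are parts of the splicing machinery, 7 fell (46.7%, against 23.8% of all tested genes) and 0 rose. All 15 had a log2 fold change below 0 (median -0.23). PRPF19 averaged 126 ± 4.95 CPM in soft and 88.7 ± 0.589 in stiff (SD, n = 3), a 1.42-fold fall (adjusted p = 0.000137, edgeR). PRPF3 fell 1.3-fold and CRNKL1 1.27-fold (adjusted p = 0.00194 and 0.00285, edgeR). The count that fell ranged with 1 library left out from 3 (without soft replicate 2; 4 without soft replicate 1) to 14 (without stiff replicate 2). Of 8 Sm core genes, 2 rose (25%, near the 25.3% of all tested genes) and 0 fell: SNRPD2 1.46-fold and SNRPG 1.34-fold (adjusted p = 0.00262 and 0.00888, edgeR). The Sm genes summed to 406 to 437 CPM in the soft libraries and to 440, 576 and 438 in stiff replicates 1, 2 and 3. Without stiff replicate 2, 2 Sm genes fell, and higher genes made up 50% of the Sm calls. Of 8 U1 genes, 2 rose (25%, near the 25.3% of all tested genes) and 1 fell (12.5%, against 23.8%). The 2 that rose were SNRPA, 1.57-fold, and LUC7L3, 1.3-fold (adjusted p = 0.000247 and 0.00194, edgeR).

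Of 18 genes of the U2 particle and 3′ splice site recognition, 5 fell (27.8%, near the 23.8% of all tested genes) and 3 rose (16.7%, against 25.3%). SF3B3 fell 1.43-fold and U2AF2, which reads the polypyrimidine tract, 1.37-fold (adjusted p = 0.000366 and 0.000487, edgeR), while SF3A2 rose 1.28-fold (adjusted p = 0.00178, edgeR). Leaving out soft replicate 1, 2 or 3 or stiff replicate 1 left 3 that fell, and 5 rose without stiff replicate 2. Of 15 decay and exon junction genes, 5 fell (33.3%, against 23.8% of all tested genes) and 1 rose (6.67%, against 25.3%). The count that fell was 3 without soft replicate 1 and 8 without stiff replicate 2. RBM8A, a subunit of the exon junction complex, fell 1.55-fold (adjusted p = 0.000109, edgeR), SMG5 1.31-fold (adjusted p = 0.00466, edgeR), and SMG9 rose 1.35-fold (adjusted p = 0.00163, edgeR).

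**Figure D4:**
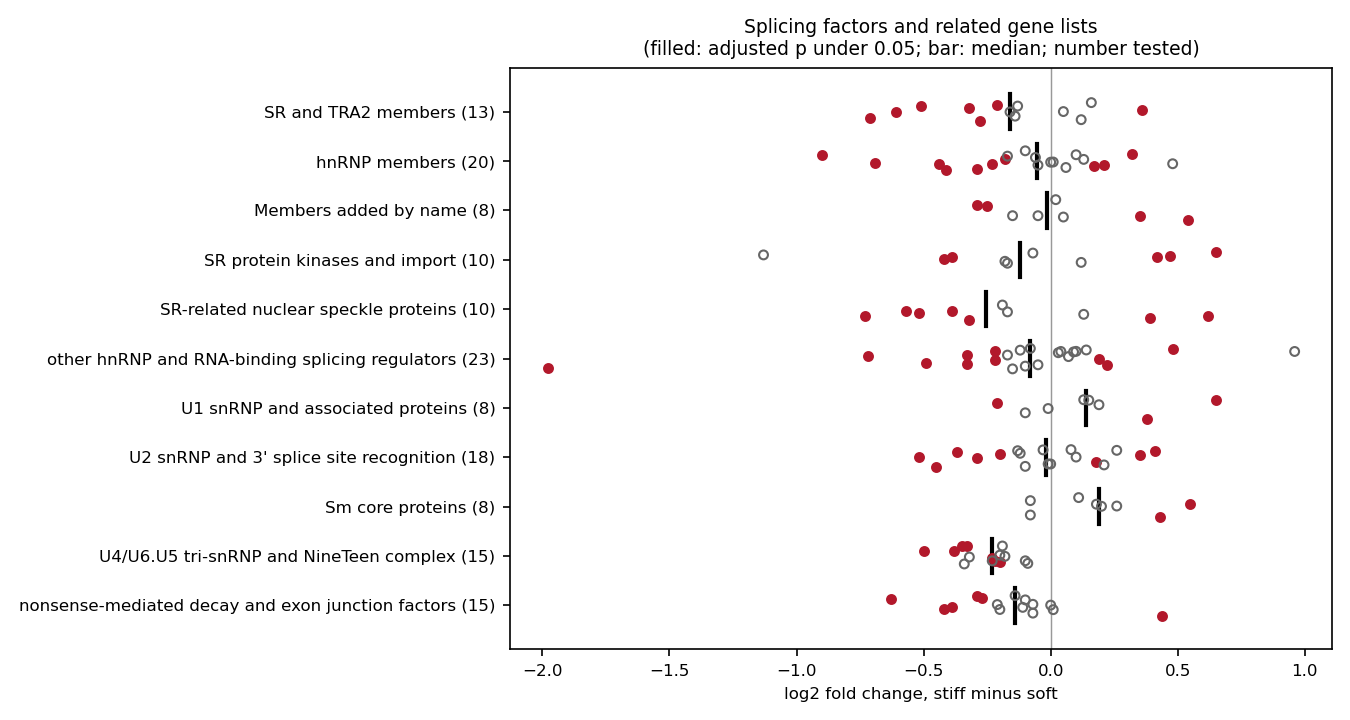
Log2 fold change, stiff minus soft, of the tested members by class and of the genes in 8 related lists; filled points passed an adjusted p of 0.05, bars are medians and numbers in brackets are genes tested. All points of the tri-snRNP list lie below 0, the Sm core median lies at 0.19, and MBNL3 is the lowest point at -1.98.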

How the data were processed

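Poly(A)-enriched RNA was made into directional libraries and read from both ends, per the labels' protocols. The submitters' processing notes list FastQC 0.11.7, Trim Galore 0.4.2, cutadapt 1.9.1, featureCounts 1.6.2 and STAR 2.6.1e, with hg38 as build. No source used here gives the gene annotation, how strand was handled, or what became of reads shared between genes. The authors deposited whole-number counts per gene symbol, and TPM values rounded to 1 decimal. Members with at least 10% of exons under 1 partner gene, or of 61-base words shared with other genes (GENCODE release 29), are given as uncertain.

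The members and gene lists were chosen with earlier results of these data known. Counts were tested in R 4.3.3 with edgeR 4.0.16 (quasi-likelihood, TMM factors, default filter, no covariate), with Benjamini-Hochberg adjustment over all 18676 tested genes and a threshold of 0.05. SE is the log2 fold change over the root of F. CPM use TMM-scaled library sizes. Library values were to be given for the 10 members with the smallest adjusted p in each direction, the 8 added regulators, and uncalled members among the 5 highest by TPM, beside HNRNPA2B1 and at most 3 genes of smallest p from every list (some genes of these lists are not reported here); other members with library values were picked after those were seen. Alternatives were DESeq2 1.42.0, other scaling and filters, limma 3.58.1 on log2(TPM + 1) and log2(TPM + 0.1), a replicate block, and leaving out each library. The fits were run on simulated data in which 200 genes changed, against 9171 genes called here. That run does not show how the fits behave when so many genes change. No 2 libraries agreed within sampling noise. Promoter and gene tables were those of RefSeq, GRCh38.p14 (all 45 members matched), while the gene spans given with members are those of GENCODE.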

Additional observations from a re-analysis of the deposited data

How the results depend on the processing

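Counts of members kept within 1.5 times under the alternatives, except that limma on TPM gave 3 higher members rather than 6 with log2(TPM + 1), with log2(TPM + 0.1) and without a filter (all genes higher: 2880, 2831 and 3138 rather than 4722). Higher genes made up 51.5% of all calls in the main test, 44.7% with library size only and 41.3%, 41.6% and 43.3% with the 3 TPM settings, where the median of all genes was -0.09, -0.11 and -0.04 and that of the members -0.17, -0.22 and -0.17. The TPM settings lost RBFOX2 (adjusted p = 0.115 to 0.128), QKI, MBNL2, HNRNPA1 and HNRNPH3, with either pseudocount. Mean TPM, from values rounded to 1 decimal, was 2.67 in soft and 3.1 in stiff for RBFOX2. It was 3.3 and 2.57 for QKI and 1.57 and 1.2 for MBNL2, but 97.6 and 104 for HNRNPA1 and 14.4 and 15.1 for HNRNPH3. The part of rounding and of the implied length in the lost calls was not tested. With a library left out, 12 to 18 members were lower and 4 to 7 higher. Members with little shared sequence, a choice made after seeing the data like the length trend correction, gave 12 lower and 5 higher.

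Signs turned only in members that did not pass. With library size only the log2 fold changes were -0.05 for HNRNPA3, -0.06 for HNRNPH1, -0.0024 for SRSF5, -0.01 for ESRP1 and -0.04 for ESRP2. With limma on log2(TPM + 1), log2(TPM + 0.1) and log2(TPM + 1) without a filter they were -0.10, -0.11 and -0.10 for HNRNPA3 and HNRNPH1, -0.05 in each for HNRNPF, -0.05, -0.06 and -0.05 for SRSF5, -0.01 in each for HNRNPL, -0.06, -0.07 and -0.06 for ESRP1, and -0.08, -0.09 and -0.08 for ESRP2. DESeq2 gave -0.0006 for HNRNPA3 and -0.0045 for HNRNPH1, the absence of a count filter -0.0036 and -0.01, and RLE factors -0.0012 for HNRNPH1. Removal of the length trend gave 0.01 for SRSF10, -0.02 for HNRNPF and 0.0031 for PTBP1. The cause was not tested. With a library left out, the ranges were -0.01 to 0.01 for HNRNPH1, -0.02 to 0.03 for HNRNPA3, -0.03 to 0.05 for ESRP2, -0.10 to 0.01 for HNRNPUL2 and -0.00039 to 0.18 for SRSF9.

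The labels number replicates 1 to 3 in both conditions. Deviations of same-numbered libraries correlated at 0.0733, 0.216 and 0.05, and soft replicates 1 and 3 correlated better with another number (0.0766 and 0.093), so the number was not taken as a pairing. With the replicate block, 6 members were higher and 16 lower, with 5167 genes higher and 5039 lower overall; HNRNPA0 passed (adjusted p = 0.0349). In the related lists the block gave 13 tri-snRNP genes that fell and 4 Sm genes that rose. The design has 3 libraries per condition, which limits the size of change that can be called for weakly expressed members such as HNRNPCL1.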
